A study of Rattus norvegicus with 6 samples.

Results

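Glycolysis and hypoxia-response genes were followed in rat bone marrow cells on 6 arrays. A list of 38 rat symbols held 2 membrane transporters, 19 glycolytic enzymes, phosphoglucomutase (Pgm1) as the link to glycogen, 6 kinases that steer the use of pyruvate or fructose phosphate, 4 genes of the hypoxia-inducible factor (HIF) pathway, and 6 other HIF target genes. A probe belonged to a member when its RefSeq accession, without version, mapped to one of these symbols. Such a probe was found for 36 members and not for Pfkp and Car9, which were not analysed here. Of the 36, 35 could be measured, among 21845 genes or probes tested in all, 5697 of them with a symbol. The probe of Pfkfb4 was above background on 1 control array and on no LIPUS array, so Pfkfb4 was left out.

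The cells came from the bone marrow of male rats, aged 8 weeks, and all 6 samples were cultured under osteogenic conditions, which favour bone formation, and taken on day 10. The 3 LIPUS samples received low-intensity pulsed ultrasound, a mechanical stimulus given as short bursts of sound, and the 3 control samples received none. RNA of each sample, 100 ng, was labelled with Cy3 and hybridised to its own single-colour Agilent array. Whether the samples of a group are separate animals or cultures is not stated in the labels, so the p-values measure only the spread between these samples, which may be technical. A mixed culture was measured in bulk, so fewer cells of a type and less RNA per cell cannot be told apart.

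Glycolysis breaks glucose down to pyruvate in the cytosol, and lactate dehydrogenase turns pyruvate into lactate, which leaves the cell through monocarboxylate transporters. When oxygen is short, the prolyl hydroxylases encoded by the Egln genes stop marking the HIF alpha subunits for destruction, and HIF then binds a short DNA core at glycolytic and mitophagy genes. Bone-forming cells are known for a high rate of glycolysis even with oxygen present.

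Levels are log2 brightness relative to the 75th percentile of the same array, and changes are LIPUS minus control on that log2 scale with limma's standard error. A gene rose or fell at a Benjamini-Hochberg adjusted p under 0.05 over all genes tested. Between 53.5% and 61.9% of probes were above background on an array, 320 to 468 probes were at the scanner limit, and any pair of arrays correlated at 0.964 to 0.986 over the tested genes, as a description since genes are not replicates. No label names a slide, so slides were inferred from grid tilt and position: control 1 and control 2 shared a tilt, and control 3 shared another with all 3 LIPUS arrays. Of markers of other cell types, 10 of 13 measured macrophage genes fell, and the mean macrophage level ranged from 4.58 to 4.66 over control and from 3.23 to 3.50 over LIPUS. The osteoblast mean was 4.47 to 4.58 in control and 5.65 to 5.81 in LIPUS, with 6 of 11 measured genes risen. Endothelial (3 of 3 fell) and cell-cycle markers (4 of 6 fell) moved as well. The part of these shifts in the changes of glycolytic genes was not tested.

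A single member rose with LIPUS, the lactate exporter Slc16a3, and none fell. That is 1 of 35, against 6.63% of all genes called in either direction, 2.89% called higher and 3.74% called lower. The other 34 did not pass, and 10 of the 35 had an unadjusted p under 0.05 in limma, against 22.1% of all genes. The change was above 0 for 26 of 35 members, against 54% of all genes, and the median change was 0.10, against 0.034. For 12 members every LIPUS array was above every control array, which is 34.3% of 35, against 14.4% of all genes separated upward and 27.2% separated in either direction. No member had every LIPUS array below every control array, against 12.7% of all genes. These 12 were Slc16a3, Gpi, Pfkl, Pfkm, Aldoa, Aldoc, Gapdh, Pkm, Ldha, Pdk2, Egln1 and Bnip3.

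**Figure D1:**
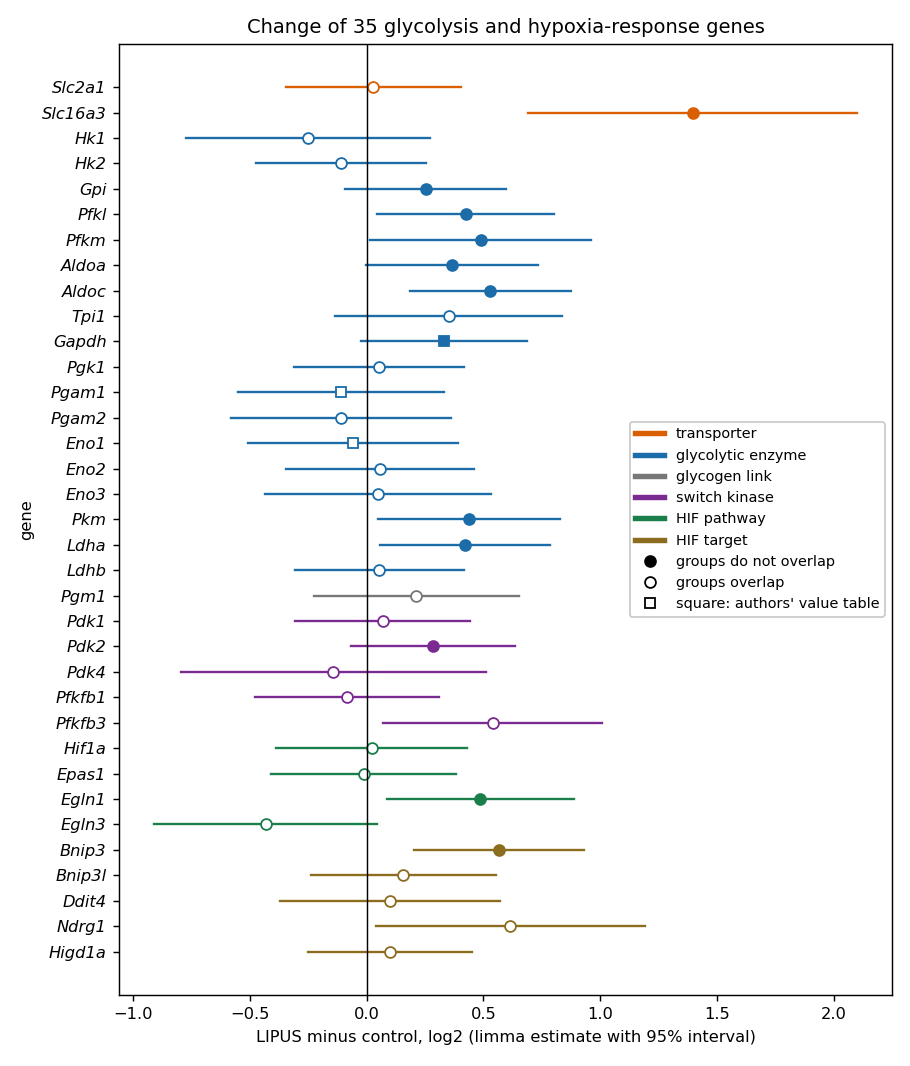
Change of each of the 35 measured members, LIPUS minus control in log2 units, as the limma estimate (point) with its 95% interval (bar), coloured by role. Filled points mark the 12 members whose groups did not overlap, all of them to the right of 0, and squares mark the 3 members read from the authors' value table.

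The count of separated members depended on how arrays were scaled. It was 12 higher and 0 lower with quantile normalization, against 14.4% and 13.4% of all genes. With median centring it was 7 higher and 0 lower, against 10.4% and 16% of all genes. When arrays were scaled to 4 spike-in probes, added RNAs of known identity, the median change of all genes moved from 0.034 to −0.30. Only Slc16a3 was then separated upward and 5 members downward (Hk2, Ldhb, Pfkfb1, Epas1 and Egln3), against 2.66% and 32.4% of all genes. The changes described here are therefore relative to the bulk of genes on the array. Of the 35, 0 passed in the authors' value table by limma, against 3.69% of all genes (1.31% higher), and 8 had an unadjusted p under 0.05, against 21.2%. There 27 of 35 changes were above 0, against 47.2% of all genes. There were 12 members separated upward in that table and 1 downward (Egln3), against 14% and 14.5% of all genes, and 28.5% in either direction.

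Of the transporters, Slc16a3 (NM_030834) encodes MCT4, the monocarboxylate transporter that carries lactate out of glycolytic cells. Its control arrays had levels of 0.30, 1.50 and 1.54, and its LIPUS arrays of 2.66, 2.22 and 2.64. Control 1 stood far below the other controls, and the groups did not overlap. Slc16a3 rose 2.63-fold, a log2 change of 1.40 ± 0.31 (SE, n = 3 per group, 95% interval 0.69 to 2.10, limma adjusted p = 0.0299). Without control 1 the change was 0.99 (limma adjusted p = 0.0447). The call was lost when any 1 LIPUS array was left out (limma adjusted p 0.0549 to 0.0945) and with quantile normalization (0.0760). It was also lost in the authors' value table (1.45, limma adjusted p = 0.0964). With slide as a fixed block, where the estimate is the LIPUS mean minus control 3, the change was 0.97 (limma adjusted p = 0.342). With spike-in scaling it was 1.06 (limma adjusted p = 0.0128).

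Slc2a1 (NM_138827), the widespread glucose importer GLUT1 and a textbook HIF target, had levels of 1.68, 2.04 and 1.93 in control and 2.01, 1.90 and 1.81 in LIPUS. The groups overlapped fully, with a change of 0.03 ± 0.17 (SE, n = 3 per group) and a 95% interval of −0.35 to 0.40. Relatives outside the list were read beside both transporters. Slc2a3, the high-affinity glucose importer GLUT3, measured −0.89, −0.83 and −0.94 on controls and −1.91, −1.74 and −1.58 with LIPUS, and fell by 0.85 ± 0.16 (SE, n = 3 per group, limma adjusted p = 0.0137). Slc16a7, which encodes the monocarboxylate transporter MCT2, lay at 0.22, 0.18 and 0.16 in control against −1.01, −1.09 and −1.62 in LIPUS, and fell by 1.43 ± 0.19 (SE, n = 3 per group, limma adjusted p = 0.00289). Both falls were separated between groups, and both calls were lost with slide as a fixed block (limma adjusted p 0.123 and 0.0629) and in the value table (0.362 and 0.0966). The Slc2a3 call was also lost with no filter on dim probes (limma adjusted p = 0.0511) and without control 1 (0.0549), control 2 (0.0505), LIPUS 1 (0.0649) or LIPUS 2 (0.0543), settings in which Slc16a7 passed. Slc16a1, which encodes MCT1, had a change of −0.17 ± 0.17 (SE, n = 3 per group).

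**Figure D2:**
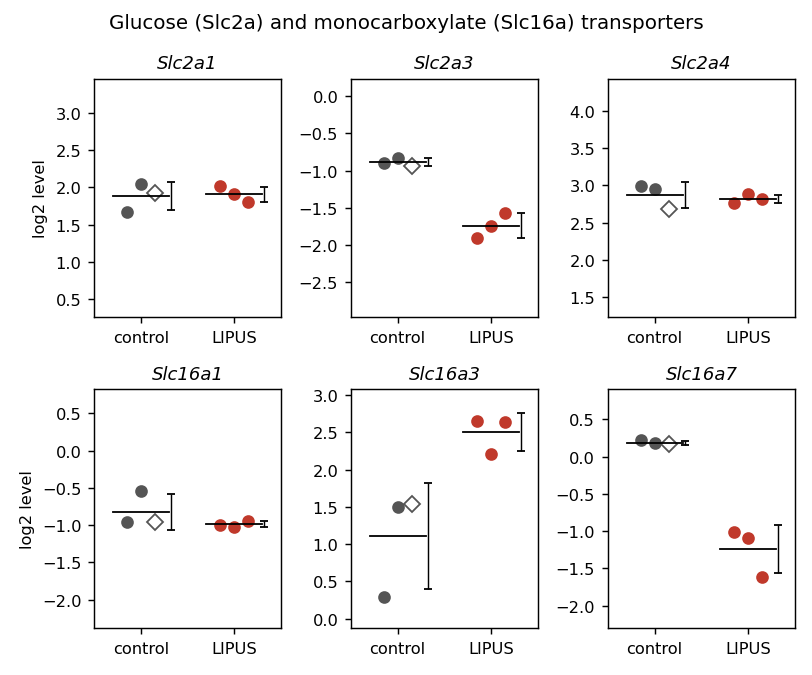
Log2 level on each array of 3 glucose transporters (Slc2a, top) and 3 monocarboxylate transporters (Slc16a, bottom); lines are group means, bars are the SD, and the open diamond is control 3, which shares the inferred slide of the LIPUS arrays. LIPUS arrays lie above all controls for Slc16a3 and below all controls for Slc2a3 and Slc16a7, and each panel has its own axis of equal length.

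The difference between related genes was also taken within each array, which cancels the scaling of arrays. Slc16a3 minus Slc16a1 was 1.56 higher in LIPUS than in control, and Slc16a3 minus Slc16a7 was 2.82 higher. Slc2a1 minus Slc2a3 was 0.88 higher. Each of these 3 differences was separated between groups, at an exact two-sided permutation p of 0.1, the smallest that 3 arrays against 3 allow (adjusted over 12 pairs, 0.3). Slc16a3 and Slc16a7 were already separated in opposite directions, so the separation of their difference was fixed beforehand and adds nothing. The gap between groups was wider for Slc16a3 than the whole range of Slc16a1, and wider for Slc2a3 than that of Slc2a1. The separation of those differences therefore followed from Slc16a3 and Slc2a3 and adds nothing either. Macrophage markers fell on the same arrays as Slc2a3 and Slc16a7, and their part in these falls was not tested.

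The short DNA core that HIF recognises was looked for in the promoters, from 250 bases before to 50 after the start, in RefSeq's GRCr8 table, which held 35 of the 38 listed members. The letters searched were ACGTG and GCGTG on both strands, and CACGTG holds ACGTG on both of them. The promoters of 4 members are shown because they contrast the single member that rose with a glycolytic enzyme, a mitophagy gene and the glucose importer that did not pass the test. Capitals mark the matches, on the strand of the gene. Slc16a3 lies at chr10:106712078-106712377 on the plus strand, Ldha at chr1:106507842-106508141 on the plus strand, Bnip3 at chr1:203154913-203155212 on the minus strand and Slc2a1 at chr5:138002272-138002571 on the plus strand.
Slc16a3: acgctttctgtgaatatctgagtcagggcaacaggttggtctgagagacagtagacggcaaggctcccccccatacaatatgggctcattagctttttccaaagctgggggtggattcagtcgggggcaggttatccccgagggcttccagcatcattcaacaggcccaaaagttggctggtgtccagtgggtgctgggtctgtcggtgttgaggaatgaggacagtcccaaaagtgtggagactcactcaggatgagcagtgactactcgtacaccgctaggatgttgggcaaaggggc
Ldha: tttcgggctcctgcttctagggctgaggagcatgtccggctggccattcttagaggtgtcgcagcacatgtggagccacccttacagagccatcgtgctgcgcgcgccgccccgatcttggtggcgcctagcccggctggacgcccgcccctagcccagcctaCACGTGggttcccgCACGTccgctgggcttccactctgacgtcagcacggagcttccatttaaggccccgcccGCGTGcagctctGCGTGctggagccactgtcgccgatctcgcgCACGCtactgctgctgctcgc
Bnip3: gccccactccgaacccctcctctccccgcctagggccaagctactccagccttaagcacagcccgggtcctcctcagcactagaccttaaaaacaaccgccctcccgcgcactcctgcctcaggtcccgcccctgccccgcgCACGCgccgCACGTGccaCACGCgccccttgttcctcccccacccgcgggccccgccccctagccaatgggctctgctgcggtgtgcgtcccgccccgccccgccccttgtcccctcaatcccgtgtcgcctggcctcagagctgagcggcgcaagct
Slc2a1: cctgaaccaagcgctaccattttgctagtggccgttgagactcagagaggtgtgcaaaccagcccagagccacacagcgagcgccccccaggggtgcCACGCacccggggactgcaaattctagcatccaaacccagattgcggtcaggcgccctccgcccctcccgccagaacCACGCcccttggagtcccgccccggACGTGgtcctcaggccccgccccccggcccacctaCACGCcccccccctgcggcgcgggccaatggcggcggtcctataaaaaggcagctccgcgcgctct
The Slc16a3 window held 0 matches, Ldha 6, Bnip3 4 and Slc2a1 4. Among the other members only Pdk1 (4) held as many as Bnip3 and Slc2a1. Several windows not shown held 0 like Slc16a3, among them those of Pkm, Tpi1, Hk2 and Egln3.

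Over the members, 25 of 39 promoters (several genes have more than 1) held a match, or 64.1%. The share was 41.6% of all 33469 promoters of that length and 45.8% of the 21851 of protein-coding genes. Member promoters were also richer in G and C, with a median of 62.3% against 51.7% of all promoters and 55.0% of protein-coding ones, and the cores themselves are rich in these bases. Among members whose groups did not overlap, 10 of 14 promoters held a match, and among those whose groups overlapped, 13 of 22 did. A match is a run of letters and not a measured binding site.

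None of the 18 measured glycolytic enzymes passed the test in either direction in limma. Unadjusted p in limma was under 0.05 for 5 of 18 (Pfkl, Pfkm, Aldoc, Pkm and Ldha), against 22.1% of all genes. The change was above 0 for 13 of 18, against 54% of all genes, and 8 of 18 were separated upward, against 14.4%. With spike-in scaling 0 of the 18 were separated upward and 2 downward (Hk2 and Ldhb), against 2.66% and 32.4% of all genes. Their median change was 0.15, with a range from −0.25 to 0.53. The median was −0.18 with spike-in scaling, against −0.30 for all genes.

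At the entry of the pathway, the hexokinases trap glucose as glucose-6-phosphate. Hk1 had a change of −0.25 ± 0.23 (SE, n = 3 per group) by the probe with the higher mean and 0.34 ± 0.27 by another probe, so its probes had opposite signs. Hk2 had a change of −0.11 ± 0.16 (SE, n = 3 per group) in the spot tables and 0.53 in the value table. Gpi, glucose-6-phosphate isomerase, had control levels of 4.05, 4.07 and 4.20 and LIPUS levels of 4.28, 4.38 and 4.42. Its groups were separated by a small step, with a change of 0.25 ± 0.15 (SE, n = 3 per group, limma adjusted p = 0.373). Pgm1, which exchanges glucose-6-phosphate with the glucose-1-phosphate of glycogen, had a change of 0.21 ± 0.20 (SE, n = 3 per group).

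Phosphofructokinase makes the committed step. Pfkl (NM_013190), the liver-type subunit, measured −1.97, −2.07 and −2.04 on controls and −1.63, −1.37 and −1.80 with LIPUS. It was dim, above background on 2 control and 3 LIPUS arrays, and its groups did not overlap (change 0.42 ± 0.17, SE, n = 3 per group, limma adjusted p = 0.177). Pfkm (NM_031715), the muscle-type subunit, lay at 0.97, 0.71 and 0.20 in control against 1.16, 1.20 and 0.99 in LIPUS. The lowest LIPUS array lay just above control 1, and the change was 0.49 ± 0.21 (SE, n = 3 per group, limma adjusted p = 0.213). Without control 3, the lowest array, the change was 0.27, and against control 3 alone it was 0.91.

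Aldolase splits fructose-1,6-bisphosphate, and Tpi1 interconverts the triose products. Aldoc (NM_012497) had control levels of 0.28, 0.18 and 0.24 and LIPUS levels of 0.88, 0.70 and 0.70. Its control arrays were close together and well below all LIPUS arrays, with a change of 0.53 ± 0.15 (SE, n = 3 per group, 95% interval 0.19 to 0.87, limma adjusted p = 0.0744). Aldoc passed with quantile normalization (limma adjusted p = 0.0404) and when probes had to be above background on all 6 arrays (0.0403). Aldoc did not pass with spike-in scaling (0.19, limma adjusted p = 0.595) or median centring (limma adjusted p = 0.142). Nor did it pass in the value table (0.41, limma adjusted p = 0.245). Aldoa, the main form in most tissues, measured 5.11, 4.93 and 5.31 on controls and 5.45, 5.53 and 5.46 with LIPUS, separated, with a change of 0.36 ± 0.16 (SE, n = 3 per group, limma adjusted p = 0.230). Aldoa minus Aldoc within an array did not separate the groups (difference −0.17, exact two-sided permutation p = 0.4). Tpi1 had a change of 0.35 ± 0.22 (SE, n = 3 per group), and its groups overlapped at control 3.

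Gapdh, Pgam1 and Eno1 were at the scanner's upper limit on 5 or 6 arrays, so their values are those of the authors' table, where the 75th percentile of each array is also 0. Gapdh, which makes the NADH-yielding step, lay at 6.56, 6.69 and 6.78 in control against 6.96, 6.94 and 7.12 in LIPUS. The groups were separated, with a change of 0.33 ± 0.15 (SE, n = 3 per group, limma adjusted p = 0.266), and another Gapdh probe gave 0.31 in the same table. Pgam1, phosphoglycerate mutase, had a change of −0.11 ± 0.18, and its probe below the limit gave 0.18 ± 0.22 in the spot tables. Eno1, the widespread enolase, had a change of −0.06 ± 0.19 by the probe at the limit. The other Eno1 probe, below the limit, had control levels of 4.14, 4.15 and 4.42 and LIPUS levels of 4.88, 4.75 and 4.75. That probe was separated in both sources, with a change of 0.56 ± 0.16 in the spot tables (SE, n = 3 per group, limma adjusted p = 0.0737 with every probe on its own) and 0.53 in the value table. The probes of Eno1 therefore disagreed within the value table too, and the counts over the enzymes use the probe at the limit. The tissue-restricted forms Pgam2 (−0.11), Eno2 (0.06) and Eno3 (0.05), and the ATP-making kinase Pgk1 (0.05 ± 0.16, 95% interval −0.31 to 0.42), had changes within their standard errors.

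At the exit of the pathway, Pkm (NM_053297), pyruvate kinase, measured 4.43, 4.59 and 4.90 on controls and 5.14, 5.03 and 5.06 with LIPUS. Control 3 lay closest to the LIPUS arrays and the groups did not overlap (change 0.44 ± 0.17, SE, n = 3 per group, limma adjusted p = 0.176). Ldha (NM_017025), the lactate dehydrogenase subunit that predominates in glycolytic tissue, lay at 3.70, 3.70 and 3.98 in control against 4.32, 4.15 and 4.18 in LIPUS. Its groups were separated, again with control 3 the nearest, and the change was 0.42 ± 0.16 (SE, n = 3 per group, limma adjusted p = 0.166). Ldhb, the subunit that predominates in oxidative tissue, had a change of 0.06 ± 0.16 (SE, n = 3 per group). Ldha minus Ldhb within an array was 0.37 higher in LIPUS, with overlapping groups (exact two-sided permutation p = 0.2), so a difference between the subunits was not shown.

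**Figure D3:**
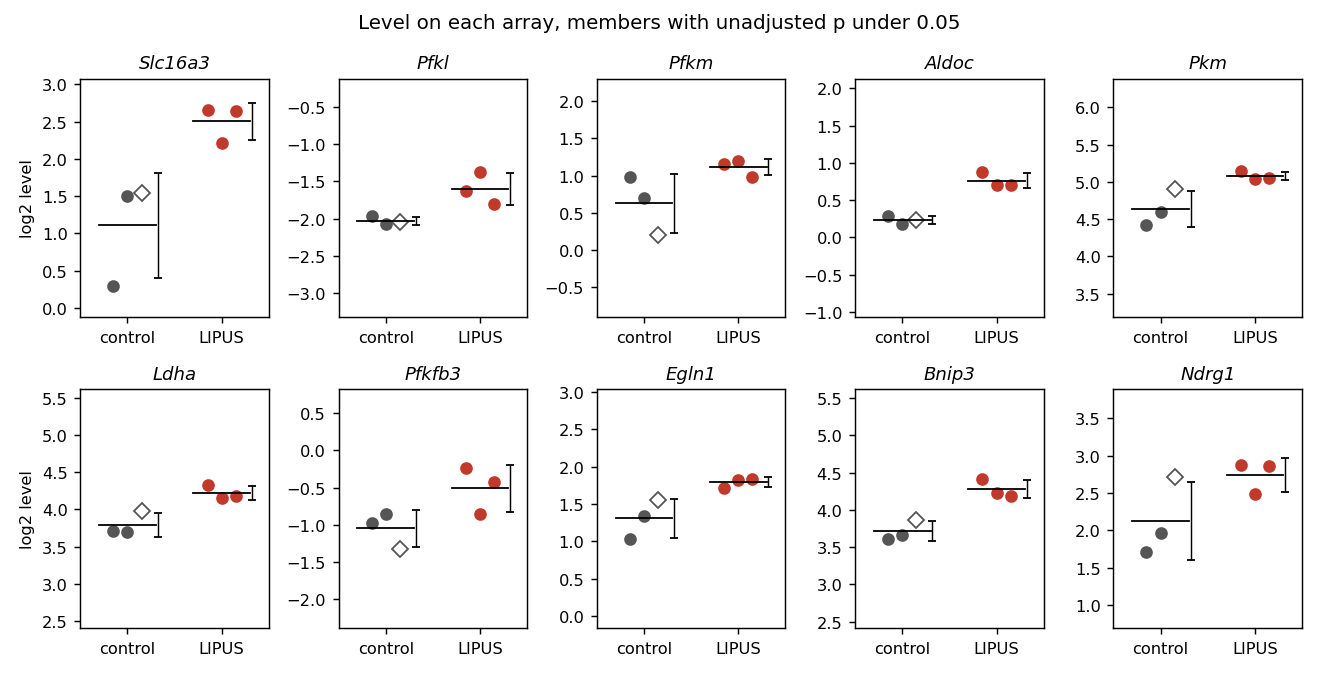
Log2 level on each array of the 10 members with an unadjusted limma p under 0.05, control in grey and LIPUS in red; lines are group means, bars are the SD, and the open diamond is control 3. Groups overlap for Pfkfb3 and Ndrg1 and are separated in the other 8 panels, which have axes of equal length; control 3 is the control nearest to LIPUS for Slc16a3, Pkm, Ldha, Egln1, Bnip3 and Ndrg1.

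None of the 5 measured switch kinases passed the test in limma, and their median change was 0.07. Pfkfb3 (NM_057135) makes fructose-2,6-bisphosphate, the strongest activator of phosphofructokinase. It had control levels of −0.97, −0.85 and −1.33 and LIPUS levels of −0.24, −0.86 and −0.43. LIPUS 2 lay at the level of control 2, so the groups touched, with a change of 0.54 ± 0.21 (SE, n = 3 per group, limma adjusted p = 0.168). In the value table Pfkfb3 had a change of 0.93 (limma adjusted p = 0.0644), with control at −1.52, −1.61 and −1.10 and LIPUS at −0.28, −0.52 and −0.65, without overlap. The pyruvate dehydrogenase kinases keep pyruvate out of the mitochondrial cycle. Pdk2 measured 2.27, 2.13 and 2.37 on controls and 2.58, 2.59 and 2.45 with LIPUS, separated, with a change of 0.28 ± 0.16 (SE, n = 3 per group, limma adjusted p = 0.325). Pdk1, a HIF target, had a change of 0.07 ± 0.17, and Pfkfb1 of −0.08 ± 0.18 (SE, n = 3 per group). Pdk4 was above background on 1 control and 2 LIPUS arrays only, and its change was −0.14 ± 0.29 in the spot tables and 0.86 in the value table.

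The 9 measured HIF pathway and target genes had a median change of 0.10, with 7 of 9 above 0, against 54% of all genes. None passed the test in limma. Unadjusted p in limma was under 0.05 for 3 of 9 (Egln1, Bnip3 and Ndrg1), against 22.1% of all genes. Members placed in other groups are not in this count, among them Slc16a3 and the HIF targets Slc2a1 and Pdk1. Whether Slc16a3 answered to HIF here was not tested. Hif1a and Epas1 encode the oxygen-regulated HIF alpha subunits, which are controlled largely as proteins. Hif1a lay at 4.12, 4.0 and 3.58 in control against 3.94, 3.97 and 3.85 in LIPUS. Its groups overlapped, with a change of 0.02 ± 0.18 (SE, n = 3 per group, 95% interval −0.39 to 0.43), and another probe gave 0.23 ± 0.17. Epas1 had a change of −0.01 ± 0.18 (95% interval −0.41 to 0.38).

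The oxygen sensors had changes of opposite sign, and neither passed the test. Egln1 (NM_178334), the main HIF prolyl hydroxylase PHD2, had control levels of 1.03, 1.33 and 1.56 and LIPUS levels of 1.72, 1.82 and 1.84. The groups did not overlap, with a change of 0.49 ± 0.18 (SE, n = 3 per group, limma adjusted p = 0.147). In the value table the same probe measured 1.76, 1.73 and 2.08 on controls and 1.57, 1.96 and 1.84 with LIPUS, overlapping, with a change of −0.07. Egln3, the hydroxylase PHD3, itself induced by HIF, lay at −1.20, −0.71 and −0.76 in control against −1.46, −0.96 and −1.54 in LIPUS. The groups overlapped, with a change of −0.43 ± 0.21 (SE, n = 3 per group, limma adjusted p = 0.270), of −1.21 without overlap in the value table and of −0.77 with spike-in scaling, where it passed (limma adjusted p = 0.0229). Egln1 minus Egln3 within an array was 0.92 higher in LIPUS without overlap (exact two-sided permutation p = 0.1, adjusted over 12 pairs 0.3).

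All 5 measured HIF targets outside these groups had a change above 0, against 54% of all genes. With spike-in scaling Bnip3l (−0.18), Ddit4 (−0.24) and Higd1a (−0.24) were below 0, and Bnip3 and Ndrg1 stayed above. The median of all genes was −0.30 there. Against control 3 alone Ddit4 was at −0.07. Bnip3 (NM_053420), a mitophagy receptor on the outer mitochondrial membrane, had control levels of 3.61, 3.66 and 3.87 and LIPUS levels of 4.42, 4.23 and 4.19. The groups were separated, with a change of 0.57 ± 0.16 (SE, n = 3 per group, 95% interval 0.20 to 0.93, limma adjusted p = 0.0721). Bnip3 passed when probes had to be above background on all 6 arrays (limma adjusted p = 0.0381) and without control 3 (0.0439). Bnip3 did not pass with spike-in scaling (0.23, limma adjusted p = 0.520) or in the value table (0.57, limma adjusted p = 0.103). The related receptor Bnip3l had a change of 0.16 ± 0.18 (SE, n = 3 per group), and Bnip3 minus Bnip3l within an array did not separate the groups (difference 0.41, exact two-sided permutation p = 0.3).

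Ndrg1 (NM_001011991), a stress- and differentiation-linked gene, measured 1.70, 1.97 and 2.71 on controls and 2.88, 2.48 and 2.87 with LIPUS. Control 3 lay among the LIPUS arrays, and the change was 0.62 ± 0.26 (SE, n = 3 per group, limma adjusted p = 0.197). Without control 3 the change was 0.91 (limma adjusted p = 0.0318), and against control 3 alone it was 0.03. A second Ndrg1 probe gave 0.45 in the spot tables and 0.13 in the value table. Ddit4, an inhibitor of mTORC1 signalling, had a change of 0.10 ± 0.21, and the mitochondrial protein Higd1a of 0.10 ± 0.16 (SE, n = 3 per group).

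Control 3 is the only control on the inferred slide of the LIPUS arrays, so the comparison within that slide rests on it. Against control 3 alone, 26 of 35 members had a change above 0, with a median of 0.18, against a median of 0.072 for all genes. The share of all genes above 0 in that comparison is not given here, so the 26 cannot be read against it. Several members separated over all controls had smaller changes there, at 0.16 for Gpi, 0.17 for Aldoa, 0.18 for Pkm, 0.24 for Ldha, 0.17 for Pdk2 and 0.24 for Egln1, and Tpi1 was at −0.09. Pfkl (0.44), Aldoc (0.52) and Bnip3 (0.41) lay nearer to their values over all controls, and Pfkfb3 (0.82) was larger. Between that comparison and the one with all controls, 10 members changed sign, and no member passed in the fit with slide as a fixed block. The slide and the group cannot be fully told apart for control 1 and control 2, which were on the other slide.

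**Figure D4:**
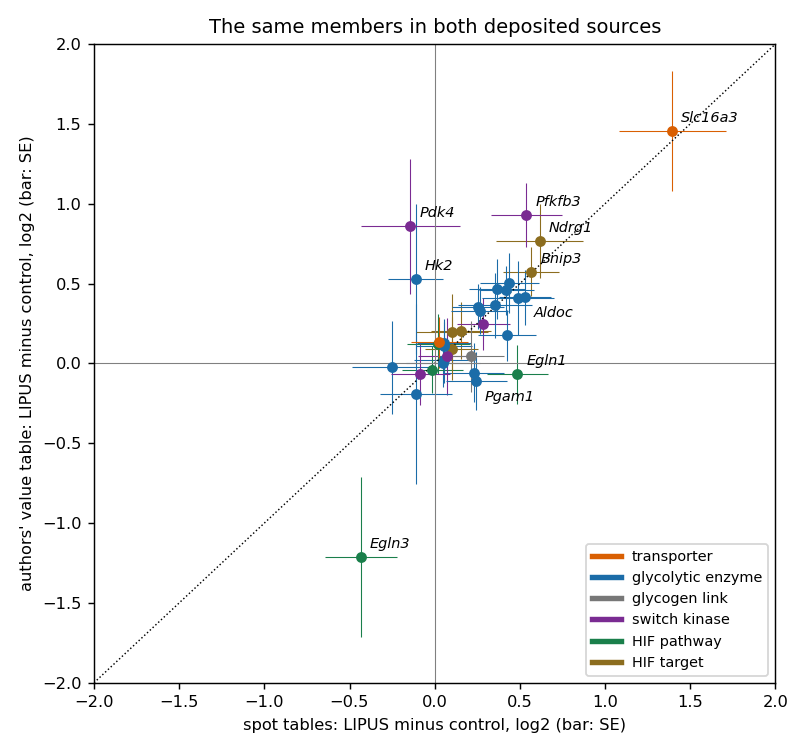
Change of the 35 members (log2, LIPUS minus control, bars are the SE) in the spot tables on the horizontal axis against the authors' value table on the vertical axis, with the line of equal values. Slc16a3 is far to the upper right in both (1.40 and 1.45), while Egln1 (0.49 and −0.07), Pdk4 (−0.14 and 0.86) and Hk2 (−0.11 and 0.53) lie away from the line.

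The wider pathway was read from further lists. Of 42 other genes of glycolysis, pyruvate use and neighbouring sugar pathways, 21 were measured, 0 rose, 2 fell (Slc2a3 and Slc16a7) and 19 did not pass, with a median change of −0.07. Over all genes 2.89% rose and 3.74% fell. Of 40 other hypoxia-response genes, 21 were measured, 1 rose, 2 fell and 18 did not pass, with a median of 0.03. Angptl4, a secreted inhibitor of lipoprotein lipase that hypoxia and fasting induce, lay at −0.29, −0.17 and 0.00 in control against 0.37, 0.58 and 0.52 in LIPUS, and rose by 0.64 ± 0.16 (SE, n = 3 per group, limma adjusted p = 0.0456). Its groups were separated, and its call was lost in most settings tried, among them spike-in scaling (0.30, limma adjusted p = 0.366) and the value table (0.110).

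The 2 hypoxia-list genes that fell were Hmox1 and Bhlhe41. Hmox1, heme oxygenase, which macrophages also use to break down heme, had control levels of 5.32, 5.26 and 5.32 and LIPUS levels of 4.09, 3.83 and 4.09, and fell by 1.29 ± 0.16 (SE, n = 3 per group, limma adjusted p = 0.00187). The groups lay far apart, and Hmox1 passed under every setting tried, including slide as a fixed block (−1.31, limma adjusted p = 0.0383) and the value table (−1.25, limma adjusted p = 0.019). Bhlhe41, a transcriptional repressor of the circadian clock, measured 4.02, 4.28 and 3.75 on controls and 3.28, 2.76 and 3.23 with LIPUS, and fell by 0.92 ± 0.21 (SE, n = 3 per group, limma adjusted p = 0.0292). Its call was lost with slide as a fixed block (−0.65, limma adjusted p = 0.285) or a random block (0.0631), in the value table (0.0788), without background correction (0.0637) and without a filter (0.0845). It was also lost when control 1, control 2 or any 1 LIPUS array was left out (limma adjusted p 0.0565 to 0.106). Vegfa, the angiogenic factor and textbook HIF target, had a change of 0.17 ± 0.15 (SE, n = 3 per group), and was chosen after its value was seen. The mean macrophage marker level was lower on the same LIPUS arrays, and its part in the fall of Hmox1 was not tested.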

How the data were processed

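Per the file headers, the deposited spot tables hold spot and local background brightness as intensity, without normalization, and spot positions as a score. The authors also deposited a value table on a log2 scale, whose making is not given in the sources used here. The members and lists were chosen with earlier results of these data known. Spot medians were corrected with limma's normexp (offset 50) against the local background median, put on the log2 scale, averaged per probe, and centred on each array's 75th percentile over gene probes. Probes brighter than 95% of the 153 negative controls on at least 3 of 6 arrays were kept (23257 of 41012), and each symbol was read from its brightest probe on average. Names came from a RefSeq table of GRCr8. LIPUS and control were compared with lmFit and eBayes (limma 3.58.1, R 4.3.3), two-sided, Benjamini-Hochberg adjusted over all 21845. Members at the scanner limit took the value table. Every member is accounted for, and those with an unadjusted p under 0.05 get every array's value. Of the wider lists, genes that passed are named. The number of arrays limits the precision. Scaling, background, filter, slide, replicate block, source and single arrays were varied. Plots used matplotlib 3.10.9.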

Additional observations from a re-analysis of the deposited data

How the results depend on the processing

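Member calls were few, and several settings moved them, while no result that had passed changed direction in any setting. The member count that rose, 1, became 0 without background correction, without a filter on dim probes, with slide as a fixed or a random block, and in the value table. It became 3 when probes had to be above background on all 6 arrays, and ranged from 0 to 3 when 1 array was left out. Spike-in scaling gave 1 member that fell (Egln3) and moved the enzyme median to −0.18 and the median of HIF pathway and target genes to −0.24. Signs of members that had not passed changed for 14 members with spike-in scaling, 10 with slide as a fixed block, 8 with median centring and 3 in the value table. Over all genes, 632 rose and 817 fell. The counts were 200 and 3294 with spike-in scaling, 242 and 413 without a filter, 121 and 161 with slide as a fixed block, 287 and 518 in the value table, and from 228 to 913 and from 387 to 1255 with 1 array left out, the highest without control 3. The cause was not tested. Correlations of same-numbered deviations were 0.0011, 0.0095 and −0.012, and those of different-numbered ones ran from −0.017 to 0.016. Whether the shared replicate numbers pair the samples is not stated in the labels and was not settled by these values. With the replicate block, 482 genes rose and 690 fell, Slc16a3 had a limma adjusted p of 0.0265, and no member's call changed. Dim probes (Pfkl, Pdk4) and probes at the scanner limit (Gapdh, Pgam1, Eno1) limit what the spot tables show.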

Other observations

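Genes of mitochondrial pyruvate use were among the listed ones that did not pass. The genes named here were chosen after their values were seen. The mitochondrial pyruvate carriers Mpc1 and Mpc2 had changes of −0.07 ± 0.20 and −0.09 ± 0.18 (SE, n = 3 per group). Dld had a change of 0.06 ± 0.16 and Pdp1 of −0.01 ± 0.17. Pdhb and Dlat, subunits of the pyruvate dehydrogenase complex, had changes of 0.36 ± 0.15 and 0.37 ± 0.16 (SE, n = 3 per group, limma adjusted p 0.209 and 0.210), and Pdha1, another subunit, of −0.14 ± 0.19. Pdp2, a phosphatase that activates that complex, had a change of 0.84 ± 0.27 (limma adjusted p = 0.106), from a dim probe above background on 1 control and 2 LIPUS arrays only. Taldo1, transaldolase, had a change of −0.48 ± 0.21 (limma adjusted p = 0.219). Hk3, a hexokinase found mainly in myeloid cells, had a change of −0.69 ± 0.24 with separated groups (limma adjusted p = 0.120). Of the settings tried, Hk3 passed only with spike-in scaling (−1.03, limma adjusted p = 0.00971). Adm, the vasodilator peptide adrenomedullin, lay at 4.75, 4.78 and 4.36 in control against 4.03, 3.86 and 4.03 in LIPUS, a change of −0.66 ± 0.18 (limma adjusted p = 0.0552). Adm passed with spike-in scaling (−0.999), with median centring (limma adjusted p = 0.0359), with quantile normalization (0.0380), when probes had to be above background on all 6 arrays (0.0265) and without control 3 (0.0233). Adm did not pass in the value table (−0.59, limma adjusted p = 0.175) or without any other single array (limma adjusted p 0.125 to 0.178). With slide as a fixed block the change was −0.39.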
